A study of Homo sapiens with 26 samples.

Results

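Transcript levels of 36 genes of the NF-kB pathway were examined in 786-O cells after siRNA knockdown of 5 nuclear speckle genes. The genes were picked by symbol with earlier results of these data known. Their shares set beside those of all genes below are therefore descriptions and not tests. They were 5 subunits of the transcription factor, 5 IkB proteins and 11 kinases and scaffolds of the activating cascade. The rest were 7 receptor and adaptor genes, 4 ubiquitin regulators, and 4 survival and effector genes. The series lists 12239 distinct genes over 3 tables of normalised read counts, and all 36 stood in every table and passed the filter on low values (a table mean of at least 10). Their lowest recovered count in any library was 47 reads, for BCL3.

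The 26 libraries held poly(A) RNA from 786-O, an established line of human kidney cancer (clear cell type) without working VHL, grown in RPMI with 10% serum. Each of the 10 knockdown groups received 1 siRNA: SART1 siRNA 6 or 4, SARNP siRNA 9 or 3, DDX39A siRNA 4 or 1, TMEM259 siRNA 6 or 5, and FIBP siRNA 7 or 6. The 3 control groups received a non-targeting siRNA, with 1 group for the SART1 table, 1 shared by SARNP and DDX39A, and 1 shared by TMEM259 and FIBP. Each group had 2 libraries, and cells were split 24 h and harvested 48 h after transfection. Sample titles call the shared SARNP and DDX39A controls NTC and the other controls NEGsiRNA. The titles do not say whether a pair of libraries stands for separate transfections, so p-values measure only the spread between these libraries, which may be technical. The tables were normalised apart, and levels were compared only within a table.

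NF-kB is a family of dimeric transcription factors that IkB proteins hold in the cytoplasm until the IkB kinase complex marks the IkB for destruction. Receptors such as the TNF receptor recruit adaptors, ubiquitin ligases and kinases that activate this complex (the canonical branch), and the kinase NIK, encoded by MAP3K14, drives processing of the NFKB2 precursor in the non-canonical branch. Freed NF-kB switches on inflammatory and survival genes together with its own inhibitors, among them NFKBIA and TNFAIP3, which close a negative feedback loop. In clear cell renal carcinoma the pathway is known for carrying inflammatory and survival signals.

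The DNA that NF-kB recognises, the kB site, is shown for 6 genes that carry a match before a RefSeq start. These 6 were picked because both siRNAs of SART1 or of DDX39A moved them in the same direction. Their shared direction is therefore no result about the kB site. REL, NFKBIB, NFKBIZ and MAP3K8 also carry a match but did not meet that rule. For NFKB2, TNFAIP3 and TNIP1 the start used lies inside the annotated span of the gene and not at its outer end. The letters searched were GGAAANTCC and, for the other strand, GGANTTTCC, in 250 bases before and 50 bases after each RefSeq start (GRCh38.p14). A gene can have several such starts. The search letters were chosen after the promoters had been read. Capitals mark the match and the sequence runs 5′ to 3′ on the strand of the gene.
NFKBIA (chr14:35404777-35404999, minus strand): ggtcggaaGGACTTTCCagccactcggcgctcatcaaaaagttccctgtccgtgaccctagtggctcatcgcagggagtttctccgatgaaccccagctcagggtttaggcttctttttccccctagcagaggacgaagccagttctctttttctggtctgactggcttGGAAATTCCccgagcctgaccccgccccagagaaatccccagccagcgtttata
TNFAIP3 (chr6:137867182-137867210, plus strand): acgtgactttGGAAAGTCCcgtggaaatc
ICAM1 (chr19:10270924-10270952, plus strand): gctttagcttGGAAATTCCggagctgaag
TNIP1 (chr5:151081057-151081085, minus strand): cagtctccggGGACTTTCCcaggggtggg
NFKB1 (chr4:102501301-102501329, plus strand): gacgtcagtgGGAATTTCCagccaggaag
NFKB2 (chr10:102395675-102395703, plus strand): ggtattttcgGGACTTTCCtaagctgctc
The NFKBIA stretch ends 28 bases before the start and holds 2 matches. The other 5 are cut to the match and 10 bases on each side because an annotated exon of some transcript overlaps the window. Each of these cut stretches still overlaps such an exon. Of 32 genes matched to the promoter table, 10 carried a match (31.2%), namely these 6 with REL, NFKBIB, NFKBIZ and MAP3K8. Among all genes with a promoter, 549 of 27305 did (2.01%), and 577 of 35116 promoters (1.64%). RELB, NFKBIE, IKBKB and RIPK2 were not matched. A match is a description of these letters and not a measured binding site.

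Gene reads per library ran from 8966609 to 26128173. Each siRNA lowered its target mRNA to between 8.48% (SARNP siRNA 9) and 48.3% (TMEM259 siRNA 6) of the control mean, and every knockdown library lay below both of its controls. All 10 listed markers of renal carcinoma lines were in every table. Of other cell types, 0 of 4 endothelial markers, 2 of 8 leukocyte markers (CD68 and CD74) and 1 of 4 fibroblast markers (COL1A1) were listed. The summed level of CD68 and CD74 lay between 269 and 519 normalised counts in SARNP and DDX39A libraries, against 327 and 332 in their controls, and their part in the results was not tested. In bulk RNA, fewer responding cells and less RNA per cell cannot be told apart. Changes below are log2 values of knockdown over control on the scale log2(normalised count + 1) with the standard error of the model, and a gene was called at a limma adjusted p below 0.05 over all tested genes. Where a call is said to be lost under another setting, the value in parentheses is the log2 change under that setting. NF-kB genes were chosen for printing per library partly because all libraries of both siRNAs lay beyond both controls. Sentences below that say so restate this choice and add no support. The share of all genes that met this rule was not counted.

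SART1 and DDX39A knockdown raised more of the 36 genes than they lowered, with both siRNAs of each target. With SART1 siRNA 6, 20 genes rose and 7 fell (55.6% and 19.4%), where 32.5% and 30.5% of all tested genes did. With SART1 siRNA 4, 15 rose and 8 fell (41.7% and 22.2%), beside 29.5% and 28.2% of all genes. SART1 is a splicing factor, and a large part of all tested genes was called in each direction. With DDX39A siRNA 4, 13 rose and 6 fell (36.1% and 16.7%), beside 25.3% and 23.7% of all genes. That margin narrowed with DESeq2, where 9 rose and 5 fell, beside 2262 and 2014 of all genes. It also rested on fewer rises without any 1 of the 4 libraries compared, though more of the 36 still rose than fell. With DDX39A siRNA 1, 18 rose and 4 fell (50.0% and 11.1%), beside 17.1% and 16.1% of all genes. DDX39A is an RNA helicase of mRNA export. The median change of the 36 was 0.18 with SART1 siRNA 6 (all genes -0.00), 0.04 with SART1 siRNA 4 (-0.01), 0.09 with DDX39A siRNA 4 (0.00) and 0.21 with DDX39A siRNA 1 (-0.00).

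SARNP siRNA 9 lowered more of the genes than it raised, and so did siRNA 3 by a margin that rested on 1 library. With SARNP siRNA 9, 7 rose and 16 fell (19.4% and 44.4%), beside 29.0% and 29.4% of all genes. With SARNP siRNA 3, 6 rose and 10 fell (16.7% and 27.8%), beside 20.3% and 21.0%. Without replicate 1 of SARNP siRNA 3, 6 rose and 6 fell, and with DESeq2, 6 rose and 7 fell. SARNP, like DDX39A, belongs to the mRNA export machinery. The median of the 36 was -0.12 with siRNA 9 (all genes -0.00) and -0.08 with siRNA 3 (0.00).

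TMEM259 siRNA 5 and FIBP siRNA 6 called more of the genes higher than lower, TMEM259 siRNA 6 called more of them lower, and the split with FIBP siRNA 7 depended on single libraries. With TMEM259 siRNA 6, 3 genes rose and 9 fell (8.33% and 25.0%), beside 9.364% and 10.03% of all genes, and with TMEM259 siRNA 5, 12 rose and 5 fell (33.3% and 13.9%), beside 10.83% and 11.98%. With FIBP siRNA 7, 8 rose and 10 fell (22.2% and 27.8%), beside 16.60% and 17.46% of all genes, and with FIBP siRNA 6, 15 rose and 4 fell (41.7% and 11.1%), beside 10.78% and 11.82%. With FIBP siRNA 7, 8 rose and 8 fell without its replicate 2, and 2 rose and 11 fell without its replicate 1. The number called depended on single libraries here. Without control replicate 1 of this table, 10 of the 36 were called with FIBP siRNA 6 in place of 19, 11 with FIBP siRNA 7 in place of 18, and 9 with TMEM259 siRNA 5 in place of 17. Without replicate 1 of TMEM259 siRNA 5, 11 were called in place of 17, and without replicate 1 of TMEM259 siRNA 6, 5 in place of 12. The split of calls also moved with DESeq2, which differs in model, test and size factors together, and with edgeR it stayed at 44.4% for FIBP siRNA 7. With DESeq2, 20.0% of the called genes were higher with FIBP siRNA 7, against 44.4% with limma, 92.9% against 78.9% with FIBP siRNA 6, and 83.3% against 70.6% with TMEM259 siRNA 5. With quantile normalisation 10.0% were higher with TMEM259 siRNA 6, against 25.0%. None of these shares was tested against that of all genes.

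**Figure D1:**
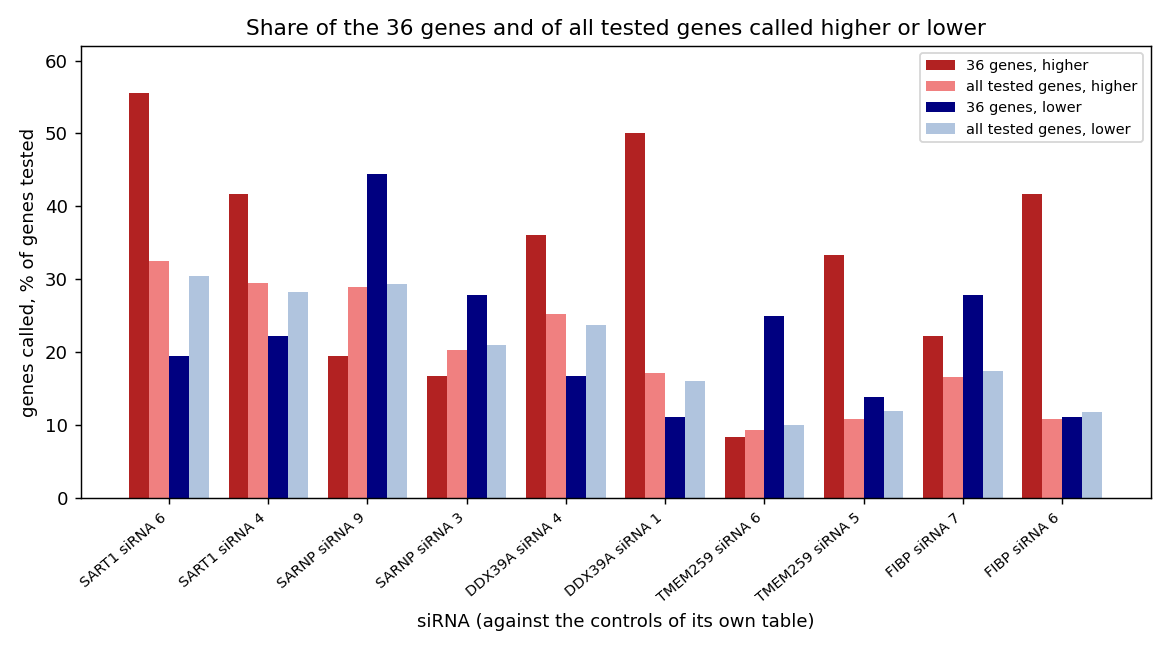
Bars give the percent of the 36 NF-kB genes (dark) and of all tested genes (pale) called higher (red) or lower (blue) with each siRNA against the controls of its table. The dark red bar exceeds the pale red one for both siRNAs of SART1 and DDX39A, for TMEM259 siRNA 5 and for both FIBP siRNAs, and the dark blue bar exceeds the pale blue one for both SARNP siRNAs, both TMEM259 siRNAs and FIBP siRNA 7.

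**Figure D2:**
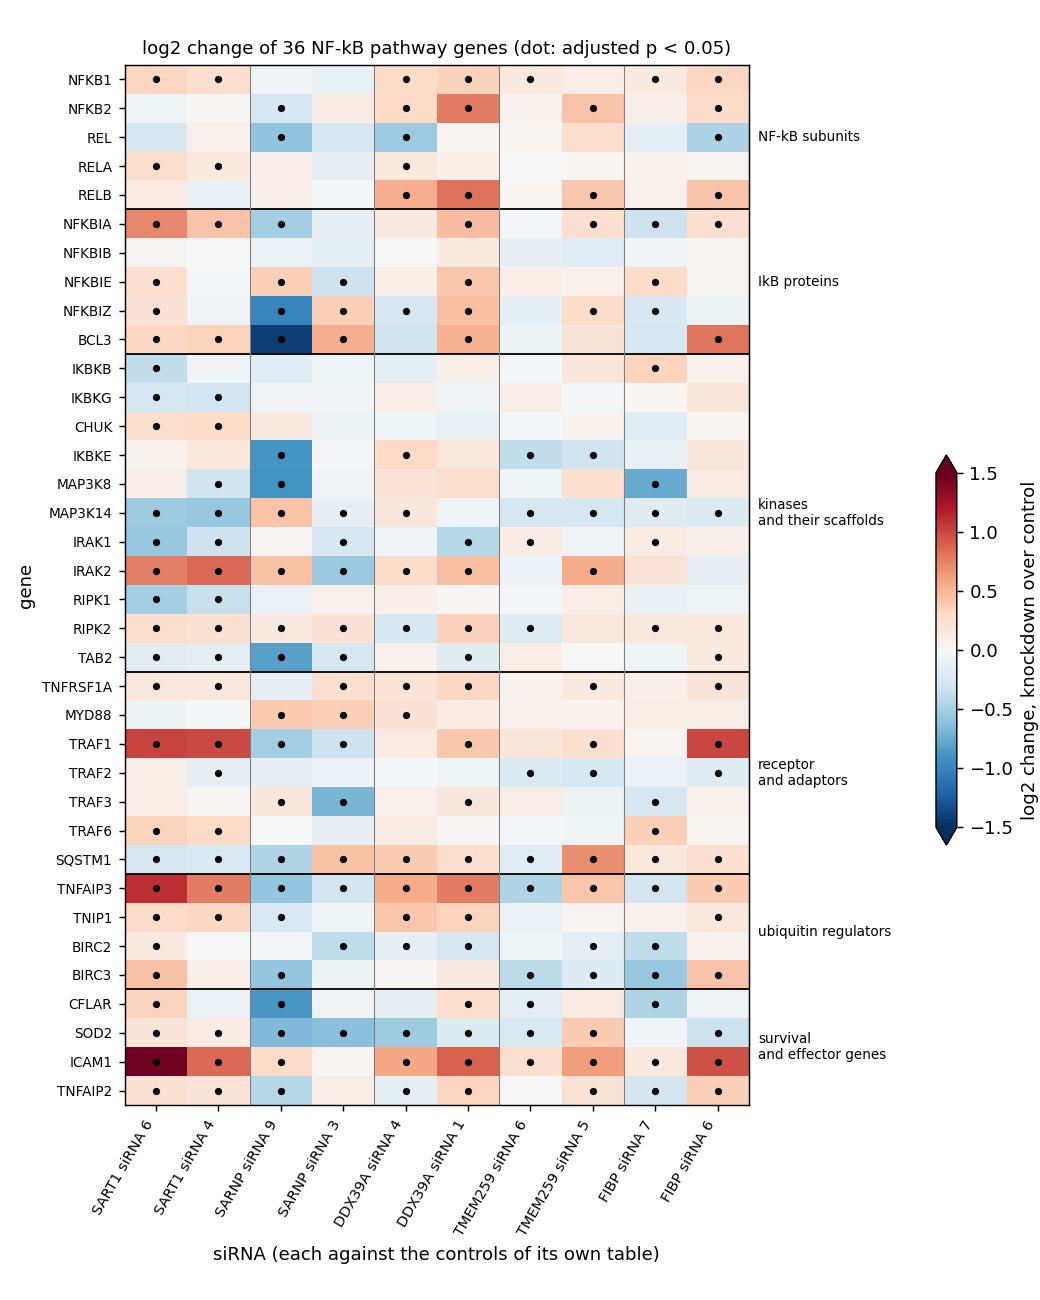
Colour gives the log2 change of each of the 36 genes (rows, grouped by role) with each siRNA (columns) over the controls of its table, and a dot marks an adjusted p below 0.05. ICAM1 is red in all 10 columns and called in 9, and NFKBIB carries no dot.

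Over the 10 siRNAs, 35 of the 36 genes were called at least once. 22 were called higher with some siRNAs and lower with others, 8 only higher and 5 only lower, while NFKBIB was called with none, its changes lying between -0.16 and 0.13. Of 11486 genes tested in all 3 tables, 95.2% were called at least once, 54.7% in both directions, 17.7% only higher and 22.9% only lower, so being called at least once does not set the 36 apart. The siRNAs of a table share their controls, so these calls are not independent.

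Among receptor and adaptor genes TRAF1 showed the largest changes, and SQSTM1 was called with every siRNA. Of the 7, 3 rose and 1 fell with SART1 siRNA 6, 3 and 2 with SART1 siRNA 4, 2 and 2 with SARNP siRNA 9, 3 and 2 with SARNP siRNA 3, 3 and 0 with DDX39A siRNA 4, and 4 and 0 with DDX39A siRNA 1. The same counts were 0 and 2 with TMEM259 siRNA 6, 3 and 1 with TMEM259 siRNA 5, 2 and 1 with FIBP siRNA 7, and 3 and 1 with FIBP siRNA 6. The shares of all tested genes with each siRNA stand above. Counts by role, here and below, were not tested against them.

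TRAF1 encodes an adaptor of TNF receptors and is itself a classical NF-kB target. It had 1387 and 1180.2 normalised counts with SART1 siRNA 6 and 1204 and 1318 with SART1 siRNA 4, against 624 and 641 in control cells. All 4 knockdown libraries lay above both controls, with log2 changes of 1.02 ± 0.07 with siRNA 6 and 0.99 ± 0.07 with siRNA 4 (limma adjusted p = 5.37e-12 and 8.97e-12). In SARNP knockdown TRAF1 had 217 and 177 with siRNA 9 and 202 and 251 with siRNA 3, against 297 and 268 in controls. The SARNP libraries lay below both controls, at -0.53 ± 0.11 with siRNA 9 and -0.32 ± 0.11 with siRNA 3 (limma adjusted p = 7.00e-05 and 0.0147). The call with SARNP siRNA 3 was lost with DESeq2 (-0.32), without its replicate 1 (-0.17) and without control replicate 1 (-0.25). With FIBP siRNA 6, TRAF1 had 1087 and 1102, against 535 and 562 in controls (1.00 ± 0.08, limma adjusted p = 2.08e-13), while FIBP siRNA 7 gave 653 and 488 and was not called (0.04 ± 0.08).

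SQSTM1 encodes p62, a scaffold of TRAF6 signalling and a receptor of selective autophagy. In DDX39A knockdown with siRNA 4 it had 7978 and 8333 normalised counts and with DDX39A siRNA 1 it had 7825 and 7034, against 6365 and 6115 in controls, a rise of 0.39 ± 0.05 with siRNA 4 and 0.25 ± 0.05 with siRNA 1 (limma adjusted p = 5.22e-09 and 3.84e-05). All 4 libraries lay above both controls. With FIBP siRNA 7 it had 7018 and 7310.4 and with FIBP siRNA 6 it had 7629 and 7698, against 6429.5 and 6422 in controls (0.16 ± 0.04 with siRNA 7, limma adjusted p = 0.000883, and 0.25 ± 0.04 with siRNA 6, limma adjusted p = 8.89e-07). It fell by 0.25 with SART1 siRNA 6 and by 0.23 with SART1 siRNA 4. SQSTM1 is 1 of 2 genes called with every siRNA, the other being TNFAIP3, and it fell with 4 siRNAs and rose with 6. Of all genes tested in the 3 tables, 0.714% were called with every siRNA.

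MYD88, the adaptor of Toll-like and IL-1 receptors, had 428 and 418 normalised counts with SARNP siRNA 9 and 437 and 389 with SARNP siRNA 3, against 303 and 339.6 in controls. Every SARNP library lay above both controls (0.40 ± 0.08 with siRNA 9, limma adjusted p = 0.000108, and 0.36 ± 0.08 with siRNA 3, limma adjusted p = 0.000576). TRAF2, an adaptor that brings BIRC ubiquitin ligases to TNF receptors, had 1238 and 1229 with TMEM259 siRNA 6 and 1207 and 1215 with TMEM259 siRNA 5, against 1419.8 and 1444 in controls. It was lower in all 4 libraries (-0.22 ± 0.06 with siRNA 6, limma adjusted p = 0.00518, and -0.24 ± 0.06 with siRNA 5, limma adjusted p = 0.00133), and the siRNA 6 call was lost without control replicate 2 (-0.20). TNFRSF1A, the main TNF receptor, was called higher with 7 siRNAs and lower with none, its changes lying between -0.12 and 0.31. Its TMEM259 siRNA 5 call was lost with DESeq2 (0.15) and without any 1 of the 4 libraries compared (0.12 to 0.17), its FIBP siRNA 6 call without its replicate 2 (0.16) or control replicate 1 (0.18), its DDX39A siRNA 4 call without its replicate 2 (0.16) or control replicate 2 (0.15), and its SART1 siRNA 6 call with quantile normalisation (0.07). TRAF6, a ubiquitin ligase downstream of MYD88, was called higher with both SART1 siRNAs (0.33 and 0.30) and with FIBP siRNA 7 (0.36), and with no other siRNA. The FIBP siRNA 7 call was lost with DESeq2 (0.36), without its replicate 1 (0.20) and without control replicate 2 (0.23), and the SART1 siRNA 4 call with DESeq2 (0.30) and without control replicate 1 (0.23).

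Among the 11 kinases and scaffolds, SART1 knockdown lowered more than it raised. Of all genes, 32.5% rose and 30.5% fell with SART1 siRNA 6, and 29.5% rose and 28.2% fell with SART1 siRNA 4. With SART1 siRNA 6, 3 rose and 6 fell, and with siRNA 4, 3 rose and 6 fell, while the counts were 3 and 3 with SARNP siRNA 9, 1 and 4 with SARNP siRNA 3, 3 and 1 with DDX39A siRNA 4, and 2 and 2 with DDX39A siRNA 1. With TMEM259 siRNA 6 they were 1 and 3, with TMEM259 siRNA 5, 1 rose and 2 fell, with FIBP siRNA 7, 3 rose and 2 fell, and with FIBP siRNA 6, 2 rose and 1 fell.

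MAP3K14 encodes NIK, the kinase of the non-canonical branch. It had 1659 and 1630.3 normalised counts with SART1 siRNA 6 and 1621 and 1609 with SART1 siRNA 4, against 2446 and 2342 in controls (-0.54 ± 0.04 with siRNA 6, limma adjusted p = 2.93e-10, and -0.57 ± 0.04 with siRNA 4, limma adjusted p = 1.63e-10). In TMEM259 knockdown it had 999 and 891 with siRNA 6 and 910.3 and 977 with siRNA 5, and in FIBP knockdown 996 and 995 with siRNA 7 and 1025 and 933 with siRNA 6, against 1172 and 1097 in their shared controls. All 12 libraries of these 3 targets lay below their controls. The TMEM259 changes were -0.26 ± 0.06 with siRNA 6 and -0.27 ± 0.06 with siRNA 5 (limma adjusted p = 0.00144 and 0.00109), and the FIBP changes -0.19 ± 0.06 with siRNA 7 and -0.21 ± 0.06 with siRNA 6 (limma adjusted p = 0.0147 and 0.00834). Without control replicate 1 of that table, all 4 calls were lost, at -0.22 and -0.22 for TMEM259 siRNA 6 and 5 and at -0.14 and -0.17 for FIBP siRNA 7 and 6. The TMEM259 siRNA 6 call was also lost without its replicate 2 (-0.18), the FIBP calls with DESeq2 (-0.19 and -0.21) and without replicate 2 of FIBP siRNA 7 (-0.19) or of FIBP siRNA 6 (-0.15).

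IRAK2 and IRAK1, kinases that act below MYD88, moved in opposite directions after SART1 knockdown. IRAK2 had 449 and 432 normalised counts with SART1 siRNA 6 and 472 and 466 with siRNA 4, against 273 and 249 in controls (0.75 ± 0.08 with siRNA 6, limma adjusted p = 2.08e-08, and 0.84 ± 0.08 with siRNA 4, limma adjusted p = 4.29e-09). IRAK1 had 11558 and 10847 with siRNA 6 and 13987 and 12764 with siRNA 4, against 16401 and 16809 in controls (-0.57 ± 0.04 with siRNA 6, limma adjusted p = 1.21e-11, and -0.31 ± 0.04 with siRNA 4, limma adjusted p = 2.45e-07). Neither gene's knockdown libraries overlapped its controls. In DDX39A knockdown with siRNA 4 IRAK2 had 201 and 182 and with DDX39A siRNA 1 it had 211 and 220.0, against 153 and 163 in controls (0.27 ± 0.11 with siRNA 4, limma adjusted p = 0.0464, and 0.45 ± 0.11 with siRNA 1, limma adjusted p = 0.00222). The siRNA 4 call sat at the threshold and was lost with DESeq2 (0.28), with quantile normalisation (0.25), without its replicate 1 (0.20) and without control replicate 1 (0.22) or 2 (0.32).

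RIPK1, a kinase scaffold at the TNF receptor, had 648 and 569.9 normalised counts with SART1 siRNA 6 and 730.4 and 649 with siRNA 4, against 892 and 841 in controls, and all 4 knockdown libraries were lower (-0.51 ± 0.07 with siRNA 6, limma adjusted p = 1.23e-06, and -0.33 ± 0.07 with siRNA 4, limma adjusted p = 0.000334). It was called with no siRNA of the other targets. RIPK2, the kinase that relays NOD receptor signals, had 1410.1 and 1367 with SARNP siRNA 9 and 1478 and 1462 with SARNP siRNA 3, against 1236 and 1291 in controls (0.14 ± 0.05 with siRNA 9, limma adjusted p = 0.0229, and 0.22 ± 0.05 with siRNA 3, limma adjusted p = 0.000725). With FIBP siRNA 7 it had 1269 and 1226 and with FIBP siRNA 6 it had 1216 and 1272, against 1068 and 1161 (0.16 ± 0.06 with siRNA 7, limma adjusted p = 0.0298, and 0.16 ± 0.06 with siRNA 6, limma adjusted p = 0.0487). These rises were small. The SARNP siRNA 9 call was lost with DESeq2 (0.14), without its replicate 1 (0.11) and without control replicate 1 (0.10). The FIBP siRNA 7 call was lost with DESeq2 (0.16), with quantile normalisation (0.16), without its replicate 1 (0.14) and without control replicate 1 (0.10). The FIBP siRNA 6 call was lost with DESeq2 and with quantile normalisation (0.16 and 0.17), without its replicate 1 (0.19) or 2 (0.13) and without control replicate 1 (0.10).

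TAB2, the ubiquitin-binding partner of the kinase TAK1, had 1069 and 1083 normalised counts with SARNP siRNA 9 and 1602 and 1556 with SARNP siRNA 3, against 1830.0 and 1969 in controls. It was lower in all 4 libraries, with a change of -0.82 ± 0.05 for siRNA 9 (limma adjusted p = 7.17e-16) and of -0.27 ± 0.05 for siRNA 3 (0.000113). The siRNA 9 libraries were lower than the siRNA 3 libraries by 0.55 (limma adjusted p = 2.11e-11). IKBKE, an IkB kinase relative of interferon signalling, had 236 and 266 with TMEM259 siRNA 6 and 257 and 269 with siRNA 5, against 326 and 319 in controls (-0.36 ± 0.09 with siRNA 6, limma adjusted p = 0.00307, and -0.29 ± 0.09 with siRNA 5, limma adjusted p = 0.0156). The siRNA 6 call was lost without its replicate 1 (-0.28), and the siRNA 5 call with DESeq2 (-0.29), without its replicate 1 (-0.26) and without control replicate 1 (-0.28) or 2 (-0.31).

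Genes of the IkB kinase complex were called with 2 siRNAs each. CHUK (IKKα) was called with both SART1 siRNAs (0.27 and 0.28) and no other. IKBKB (IKKβ) was called lower with SART1 siRNA 6 (-0.37) and higher with FIBP siRNA 7 (0.34), a call that was lost with DESeq2 (0.34) and without any 1 of the 4 libraries compared (0.32 to 0.36). IKBKG, the NEMO scaffold, was called lower with both SART1 siRNAs (-0.26 and -0.29). It has a near-identical pseudogene copy that could share its reads, so its values are uncertain. MAP3K8 (TPL2), a kinase held by the NFKB1 precursor, was called lower with SART1 siRNA 4 (-0.30), SARNP siRNA 9 (-0.90) and FIBP siRNA 7 (-0.76).

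Among the 5 NF-kB subunits, DDX39A knockdown raised NFKB1, NFKB2 and RELB. Under DDX39A siRNA 4, 4 subunits rose and 1 fell (all genes 25.3% and 23.7%), and with siRNA 1, 3 rose and 0 fell (all genes 17.1% and 16.1%). With both SART1 siRNAs 2 rose and 0 fell, with SARNP siRNA 9, 0 rose and 2 fell, with SARNP siRNA 3, 0 rose and 0 fell, with TMEM259 siRNA 6, 1 rose and 0 fell, with TMEM259 siRNA 5, 2 rose and 0 fell, with FIBP siRNA 7, 1 rose and 0 fell, and with FIBP siRNA 6, 3 rose and 1 fell.

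RELB, the partner of the processed NFKB2 product p52, had 547 and 499 normalised counts with DDX39A siRNA 4 and 622 and 630.3 with DDX39A siRNA 1, against 359 and 355 in controls (0.55 ± 0.09 with siRNA 4, limma adjusted p = 2.07e-06, and 0.81 ± 0.09 with siRNA 1, limma adjusted p = 2.26e-09). NFKB2, the p100 precursor gene, had 2223 and 2082 with siRNA 4 and 3032 and 2983 with siRNA 1, against 1802 and 1701 (0.30 ± 0.05 with siRNA 4, limma adjusted p = 6.40e-06, and 0.78 ± 0.05 with siRNA 1, limma adjusted p = 5.10e-15). Both genes of this non-canonical pair lay above both controls in all 4 DDX39A libraries, and siRNA 1 raised them more than siRNA 4 (siRNA 4 over siRNA 1, -0.26 ± 0.09 for RELB and -0.48 ± 0.05 for NFKB2, limma adjusted p = 0.0119 and 3.16e-10). For RELB this difference was lost with DESeq2 (-0.26), without replicate 2 of siRNA 4 (-0.20) and without replicate 2 of siRNA 1 (-0.25). NFKB1, the p105 precursor gene, had 1763 and 1661 with siRNA 4 and 1772 and 1821 with siRNA 1, against 1388 and 1447 (0.27 ± 0.05 with siRNA 4, limma adjusted p = 2.81e-05, and 0.34 ± 0.05 with siRNA 1, limma adjusted p = 1.57e-06). In FIBP knockdown NFKB1 had 1612 and 1503 with siRNA 7 and 1736 and 1755 with siRNA 6, against 1357 and 1462 (0.14 ± 0.05 with siRNA 7, limma adjusted p = 0.0237, and 0.31 ± 0.05 with siRNA 6, limma adjusted p = 6.76e-06). The FIBP siRNA 7 call was lost with DESeq2 (0.14), without its replicate 1 (0.09) and without control replicate 1 (0.09).

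RELA (p65), the main activating subunit, was called only higher, with SART1 siRNA 6 (0.27), SART1 siRNA 4 (0.15) and DDX39A siRNA 4 (0.16). The SART1 siRNA 4 call was lost with DESeq2 (0.15), with quantile normalisation (0.09), without its replicate 2 (0.10) and without control replicate 1 (0.12). The DDX39A siRNA 4 call was lost with DESeq2 (0.16), without its replicate 1 (0.13) and without control replicate 1 (0.16) or 2 (0.16). REL (c-Rel) was called only lower, with SARNP siRNA 9 (-0.59), DDX39A siRNA 4 (-0.54) and FIBP siRNA 6 (-0.47), where it was lost with DESeq2 (-0.47) and without control replicate 1 (-0.41).

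Among the 5 IkB proteins the number that rose and fell was 4 and 0 with SART1 siRNA 6, 2 and 0 with SART1 siRNA 4, 1 and 3 with SARNP siRNA 9, 2 and 1 with SARNP siRNA 3, 0 and 1 with DDX39A siRNA 4, and 4 and 0 with DDX39A siRNA 1. It was 0 and 0 with TMEM259 siRNA 6, 2 and 0 with TMEM259 siRNA 5, 1 and 2 with FIBP siRNA 7, and 2 and 0 with FIBP siRNA 6. NFKBIA encodes IkBα, the classical feedback inhibitor whose promoter with 2 matches is printed above. It had 2315 and 2251 normalised counts with SART1 siRNA 6 and 1771 and 1955 with SART1 siRNA 4, against 1375 and 1394 in controls. All 4 knockdown libraries were higher (0.72 ± 0.05 with siRNA 6, limma adjusted p = 1.18e-11, and 0.43 ± 0.05 with siRNA 4, limma adjusted p = 8.15e-08). NFKBIA rose with DDX39A siRNA 1 (0.47) and fell with SARNP siRNA 9 (-0.51), and was not called with DDX39A siRNA 4 (0.13) or SARNP siRNA 3 (-0.13).

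Of the 4 ubiquitin regulators, SART1 siRNA 6 raised 4 and siRNA 4 raised 2, with none called lower (32.5% and 29.5% of all genes rose). SARNP siRNA 9 lowered 3 and siRNA 3 lowered 2, with none called higher (29.4% and 21.0% of all genes fell). Under DDX39A siRNA 4, 2 rose and 1 fell, and with siRNA 1, 2 rose and 1 fell. With TMEM259 siRNA 6, 0 rose and 2 fell, with TMEM259 siRNA 5, 1 rose and 2 fell, with FIBP siRNA 7, 0 rose and 3 fell, and with FIBP siRNA 6, 3 rose and 0 fell.

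TNFAIP3 encodes A20, the ubiquitin-editing enzyme that shuts the pathway off, and was called with every siRNA. It had 1265 and 1147 normalised counts with SART1 siRNA 6 and 907 and 1004 with SART1 siRNA 4, against 550.1 and 569 in controls (1.10 ± 0.06 with siRNA 6, limma adjusted p = 6.92e-13, and 0.77 ± 0.06 with siRNA 4, limma adjusted p = 3.83e-10). In the shared table it had 224 and 216 with SARNP siRNA 9, 258 and 283 with SARNP siRNA 3, 524 and 444 with DDX39A siRNA 4 and 556 and 557 with DDX39A siRNA 1, against 327 and 329 in controls. All SARNP libraries thus lay below, and all DDX39A libraries above, both controls. The SARNP changes were -0.57 ± 0.09 with siRNA 9 and -0.28 ± 0.09 with siRNA 3 (limma adjusted p = 5.62e-07 and 0.00899) and the DDX39A changes 0.56 ± 0.09 with siRNA 4 and 0.76 ± 0.09 with siRNA 1 (limma adjusted p = 1.45e-06 and 7.81e-09). The SARNP siRNA 3 call was lost with DESeq2 (-0.28) and without its replicate 1 (-0.21).

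TNIP1, which encodes the A20-binding protein ABIN-1, had 5195 and 4897 normalised counts with DDX39A siRNA 4 and 4801 and 4676 with DDX39A siRNA 1, against 3733 and 3799 in controls (0.42 ± 0.05 with siRNA 4, limma adjusted p = 6.26e-10, and 0.33 ± 0.05 with siRNA 1, limma adjusted p = 3.06e-07). Every DDX39A library was above both controls. BIRC3 (cIAP2), a ubiquitin ligase that NF-kB induces, had 1025 and 1180.4 with TMEM259 siRNA 6 and 1294 and 1245 with TMEM259 siRNA 5, against 1417 and 1475 (-0.39 ± 0.06 with siRNA 6, limma adjusted p = 4.68e-06, and -0.19 ± 0.06 with siRNA 5, limma adjusted p = 0.0211). All 4 libraries were lower, and the siRNA 5 call was lost with DESeq2 (-0.18), without its replicate 2 (-0.16) and without control replicate 1 (-0.22) or 2 (-0.16). BIRC2 (cIAP1) was called higher with SART1 siRNA 6 (0.14) and lower with 5 siRNAs, of which SARNP siRNA 3 (-0.38) and FIBP siRNA 7 (-0.38) gave the largest falls. Its SART1 siRNA 6 call was lost without control replicate 2 (0.10) and with quantile normalisation, where the change was within 0.001 of 0.

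**Figure D3:**
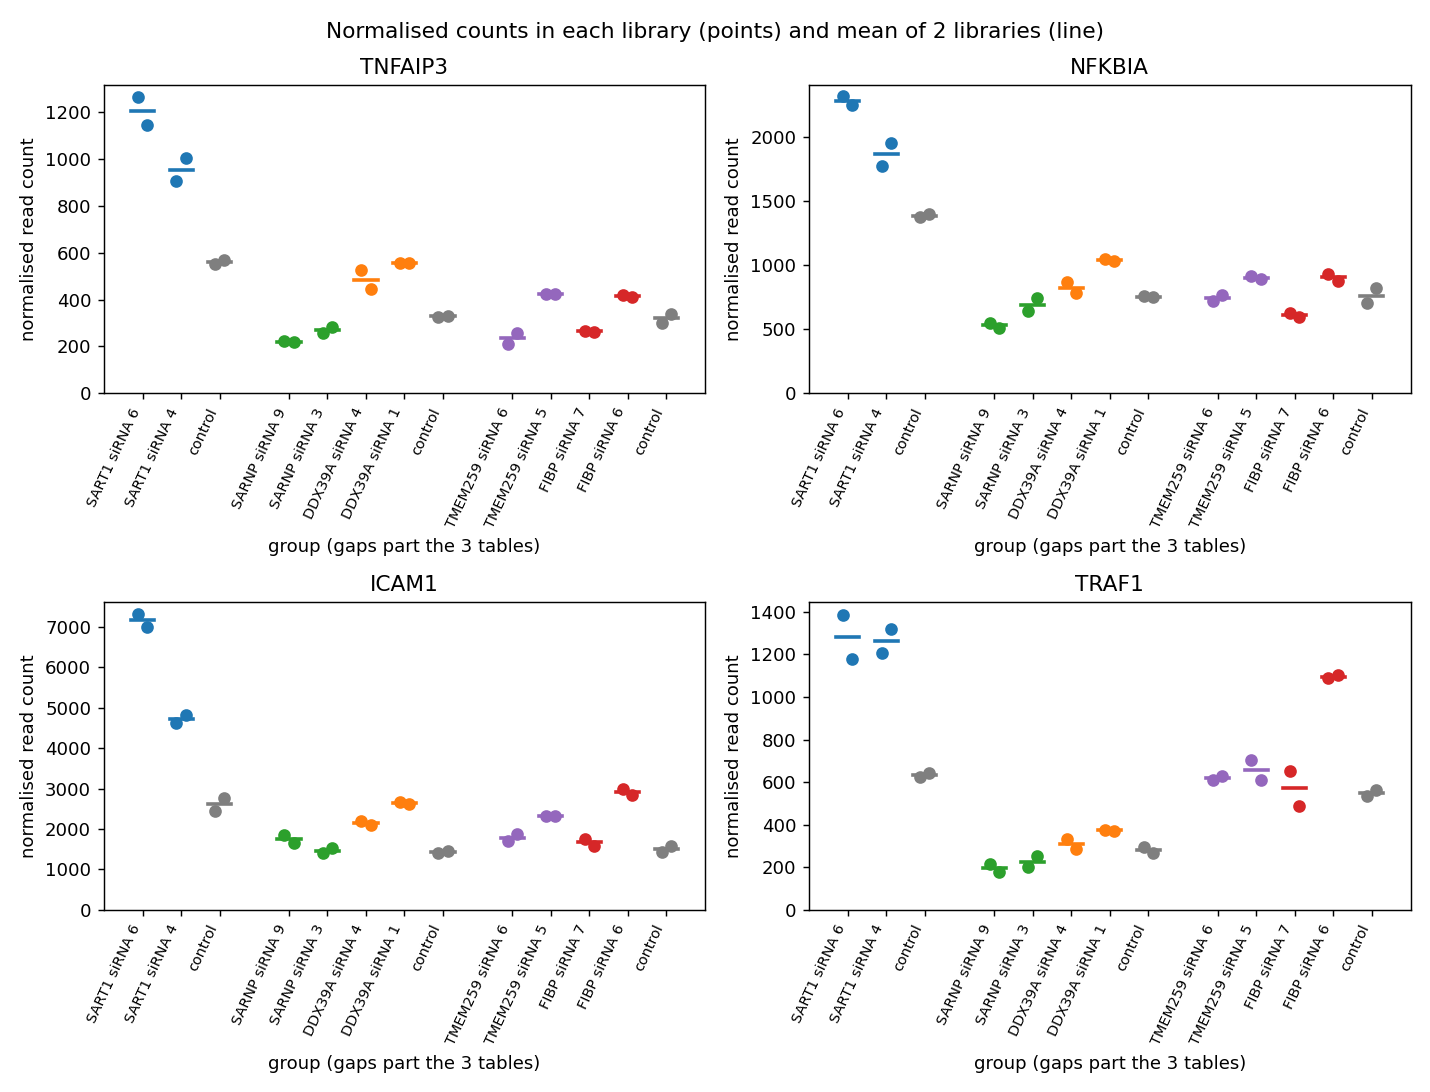
Points give the normalised read count of TNFAIP3, NFKBIA, ICAM1 and TRAF1 in each library, lines the mean of the 2 libraries, and gaps part the 3 separately normalised tables. TNFAIP3 libraries of SARNP knockdown lie below the control points and those of DDX39A knockdown above them, and every SART1 library lies above its controls for all 4 genes.

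ICAM1, the leukocyte adhesion molecule that NF-kB induces, rose with more siRNAs than any other of the 36, 9 of 10, and 0.670% of all genes rose with as many. It had 7332 and 6996 normalised counts with SART1 siRNA 6 and 4615 and 4834 with SART1 siRNA 4, against 2454 and 2779.7 in controls (1.45 ± 0.05 with siRNA 6, limma adjusted p = 2.18e-17, and 0.85 ± 0.05 with siRNA 4, limma adjusted p = 2.53e-13). With DDX39A siRNA 4 it had 2205 and 2098 and with DDX39A siRNA 1 it had 2659 and 2622, against 1417 and 1450.3 (0.58 ± 0.05 with siRNA 4, limma adjusted p = 9.85e-12, and 0.88 ± 0.05 with siRNA 1, limma adjusted p = 6.15e-16). In these 2 targets no knockdown library overlapped a control. With TMEM259 siRNA 6 it had 1699 and 1868, with TMEM259 siRNA 5 it had 2315 and 2314, with FIBP siRNA 7 it had 1746 and 1590.4 and with FIBP siRNA 6 it had 2999 and 2835, against 1434 and 1578 in their controls. The changes were 0.24 ± 0.05, 0.62 ± 0.05, 0.15 ± 0.05 and 0.95 ± 0.05 (limma adjusted p = 0.000557, 1.19e-12, 0.0238 and 4.73e-19). Without control replicate 1, the calls with TMEM259 siRNA 6 (0.18) and FIBP siRNA 7 (0.08) were lost, and the FIBP siRNA 7 call was also lost without its replicate 1 (0.08), with DESeq2 (0.14) and with quantile normalisation (0.13). With SARNP siRNA 9 ICAM1 had 1846 and 1664 (0.29 ± 0.05, limma adjusted p = 1.47e-05), and with siRNA 3 it had 1404 and 1531, which was not called (0.03 ± 0.05).

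SOD2, the mitochondrial superoxide dismutase that NF-kB induces as a survival gene, fell in SARNP knockdown. It had 794 and 779 normalised counts with SARNP siRNA 9 and 785 and 830.2 with SARNP siRNA 3, against 1255 and 1237 in controls (-0.66 ± 0.06 with siRNA 9, limma adjusted p = 1.25e-12, and -0.63 ± 0.06 with siRNA 3, limma adjusted p = 1.62e-11). The knockdown libraries did not overlap the controls. SOD2 was also lower with both DDX39A siRNAs (-0.53 and -0.21), where ICAM1 and TNFAIP3 were higher. CFLAR (c-FLIP), an inhibitor of caspase-8, was called lower with SARNP siRNA 9 (-0.88), TMEM259 siRNA 6 (-0.15) and FIBP siRNA 7 (-0.46), and higher with SART1 siRNA 6 (0.34) and DDX39A siRNA 1 (0.27). The TMEM259 siRNA 6 call was lost with DESeq2 (-0.15), without its replicate 1 (-0.11) and without control replicate 1 (-0.13) or 2 (-0.17). Of the 4 survival and effector genes, the number that rose and fell was 4 and 0 with SART1 siRNA 6, 3 and 0 with SART1 siRNA 4, 1 and 3 with SARNP siRNA 9, 0 and 1 with SARNP siRNA 3, 1 and 2 with DDX39A siRNA 4, and 3 and 1 with DDX39A siRNA 1. It was 1 and 2 with TMEM259 siRNA 6, 3 and 0 with TMEM259 siRNA 5, 1 and 2 with FIBP siRNA 7, and 2 and 1 with FIBP siRNA 6.

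The 2 siRNAs of a target were then compared with each other. With SART1 siRNA 6, 11 of the 36 were higher and 4 lower than with siRNA 4, beside 19.4% and 19.1% of all genes, and ICAM1 (0.60 ± 0.05) and CFLAR (0.42 ± 0.04) differed most. DDX39A siRNA 4 left 4 of the genes higher and 14 lower than siRNA 1 did, beside 25.6% and 25.0%. With SARNP siRNA 9, 9 were higher and 15 lower than with siRNA 3, beside 31.7% and 32.5%. In these 3 targets the siRNAs differed at between 15 and 24 of the 36 genes. With TMEM259 siRNA 6, 2 were higher and 15 lower than with siRNA 5, beside 16.49% and 15.59%. With FIBP siRNA 7, 5 were higher and 19 lower than with siRNA 6, beside 17.93% and 17.73%, and 15 rather than 24 were called without replicate 1 of FIBP siRNA 6. With DESeq2, 90.9% of the called genes were higher with SART1 siRNA 6, against 73.3% with limma, and 6.25% with FIBP siRNA 7, against 20.8%.

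In 17 cases, 13 genes in all, the 2 siRNAs of a target called a gene in opposite directions. Each such difference was itself called, which follows from 2 opposite calls against the same controls and adds no support. The cases were 7 of the 36 for SARNP (19.4%), beside 13.0% of all tested genes, and 3 for DDX39A (8.33%), beside 5.16%. For TMEM259 there were 3 (8.33%), beside 2.17%, and for FIBP 4 (11.1%), beside 2.50%. SART1 had none, beside 2.42%. BCL3, an atypical IkB protein that acts in the nucleus, had 45.9 and 46.6 normalised counts with SARNP siRNA 9 and 169 and 199 with SARNP siRNA 3, against 108 and 144 in controls. The changes were -1.41 ± 0.15 with siRNA 9 and 0.55 ± 0.15 with siRNA 3 (limma adjusted p = 3.76e-10 and 0.00345), and the siRNA 9 libraries lay below both controls and the siRNA 3 libraries above both. The siRNA 3 call was lost without its replicate 2 (0.43) and without control replicate 1 (0.34). NFKBIZ, a nuclear IkB protein of secondary response genes, had 419 and 399 with SARNP siRNA 9 and 1047 and 1046 with siRNA 3, against 801 and 831 (a fall by 1.00 with siRNA 9, limma adjusted p = 9.55e-17, and a rise by 0.36 with siRNA 3, limma adjusted p = 9.07e-06). In DDX39A knockdown NFKBIZ had 698 and 673 with siRNA 4 and 1134 and 1089.8 with siRNA 1 (-0.25 ± 0.06 with siRNA 4 and 0.45 ± 0.06 with siRNA 1).

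SQSTM1 had 4447 and 4697 normalised counts with SARNP siRNA 9 and 8506 and 8455 with SARNP siRNA 3 (-0.45 ± 0.05 with siRNA 9 and 0.44 ± 0.05 with siRNA 3), and 5717 and 5688 with TMEM259 siRNA 6 and 10899.7 and 9894 with TMEM259 siRNA 5 (-0.17 ± 0.04 with siRNA 6 and 0.69 ± 0.04 with siRNA 5). TRAF3, an adaptor that keeps NIK low, had 1020.5 and 982 with SARNP siRNA 9 and 554 and 546 with siRNA 3, against 943 and 837 (0.17 ± 0.06 with siRNA 9 and -0.69 ± 0.06 with siRNA 3). The TRAF3 call with siRNA 9 was lost with DESeq2 (0.17), without its replicate 1 (0.14) and without control replicate 2 (0.09). IRAK2 had 224 and 207 with SARNP siRNA 9 and 102 and 112 with siRNA 3 (0.44 ± 0.11 with siRNA 9 and -0.55 ± 0.11 with siRNA 3), with the controls given above between them. NFKBIE (IkBε) had 506 and 514 with SARNP siRNA 9 and 303 and 342 with siRNA 3, against 406 and 389.8 in controls (0.36 ± 0.08 with siRNA 9 and -0.31 ± 0.08 with siRNA 3), and its siRNA 3 call was lost without replicate 1 of that siRNA (-0.22). MAP3K14 had 2145 and 2054 with SARNP siRNA 9 and 1448 and 1422 with siRNA 3 (0.43 ± 0.05 with siRNA 9 and -0.12 ± 0.05 with siRNA 3). The siRNA 3 call of MAP3K14 sat at the threshold (limma adjusted p = 0.0485). It was lost with edgeR (-0.12), DESeq2 (-0.12) and quantile normalisation (-0.10), without replicate 1 (-0.14) or 2 (-0.11) of the siRNA and without control replicate 1 (-0.10) or 2 (-0.14).

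In the FIBP and TMEM259 table the lower-numbered siRNA of a target gave the higher value of every such gene. TNFAIP3 had 212 and 259 normalised counts with TMEM259 siRNA 6 and 425 and 426 with TMEM259 siRNA 5, and 267 and 261 with FIBP siRNA 7 and 417 and 412 with FIBP siRNA 6, against 299.9 and 339 in controls. Its changes were -0.45 ± 0.09, 0.41 ± 0.09, -0.27 ± 0.09 and 0.38 ± 0.09 (limma adjusted p = 0.000387, 0.000774, 0.0191 and 0.00194). Each of these 4 calls was lost without some library: the siRNA 6 call of TMEM259 without its replicate 1 (-0.30), the siRNA 5 call without control replicate 1 (0.32), the siRNA 6 call of FIBP likewise (0.29), and the siRNA 7 call of FIBP without its replicate 2 (-0.25), without control replicate 2 (-0.18) and with DESeq2 (-0.28). BIRC3 had 1057 and 898 with FIBP siRNA 7 and 1961 and 1913 with FIBP siRNA 6 (-0.57 ± 0.06 with siRNA 7 and 0.42 ± 0.06 with siRNA 6), with the controls between them. NFKBIA had 628 and 592 with FIBP siRNA 7 and 929 and 875 with FIBP siRNA 6, against 699 and 819 in controls (-0.31 ± 0.07 with siRNA 7 and 0.25 ± 0.07 with siRNA 6). Its siRNA 7 call was lost without control replicate 2 (-0.20), and its siRNA 6 call without control replicate 1 (0.14) or replicate 1 of the siRNA (0.21).

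TNFAIP2, a TNF-induced gene of membrane protrusions, had 1139.6 and 998 normalised counts with FIBP siRNA 7 and 1632 and 1721 with FIBP siRNA 6, against 1295 and 1316 in controls (-0.29 ± 0.05 with siRNA 7 and 0.36 ± 0.05 with siRNA 6). The controls lay between the siRNAs. It had 937 and 937 with DDX39A siRNA 4 and 1280.4 and 1317 with DDX39A siRNA 1, against 1046 and 1035 (-0.15 ± 0.06 with siRNA 4 and 0.32 ± 0.06 with siRNA 1). The DDX39A siRNA 4 call was lost with DESeq2 (-0.15), without replicate 1 (-0.15) or 2 (-0.15) of the siRNA and without control replicate 1 (-0.14) or 2 (-0.16). RIPK2 had 1084 and 1063 with DDX39A siRNA 4 and 1595 and 1629.5 with DDX39A siRNA 1 (-0.23 ± 0.05 with siRNA 4 and 0.35 ± 0.05 with siRNA 1). SOD2 had 1013 and 1107 with TMEM259 siRNA 6 and 1689 and 1546 with TMEM259 siRNA 5, against 1238 and 1236 (-0.22 ± 0.06 with siRNA 6 and 0.39 ± 0.06 with siRNA 5), and its siRNA 6 call was lost without replicate 1 of that siRNA (-0.16).

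**Figure D4:**
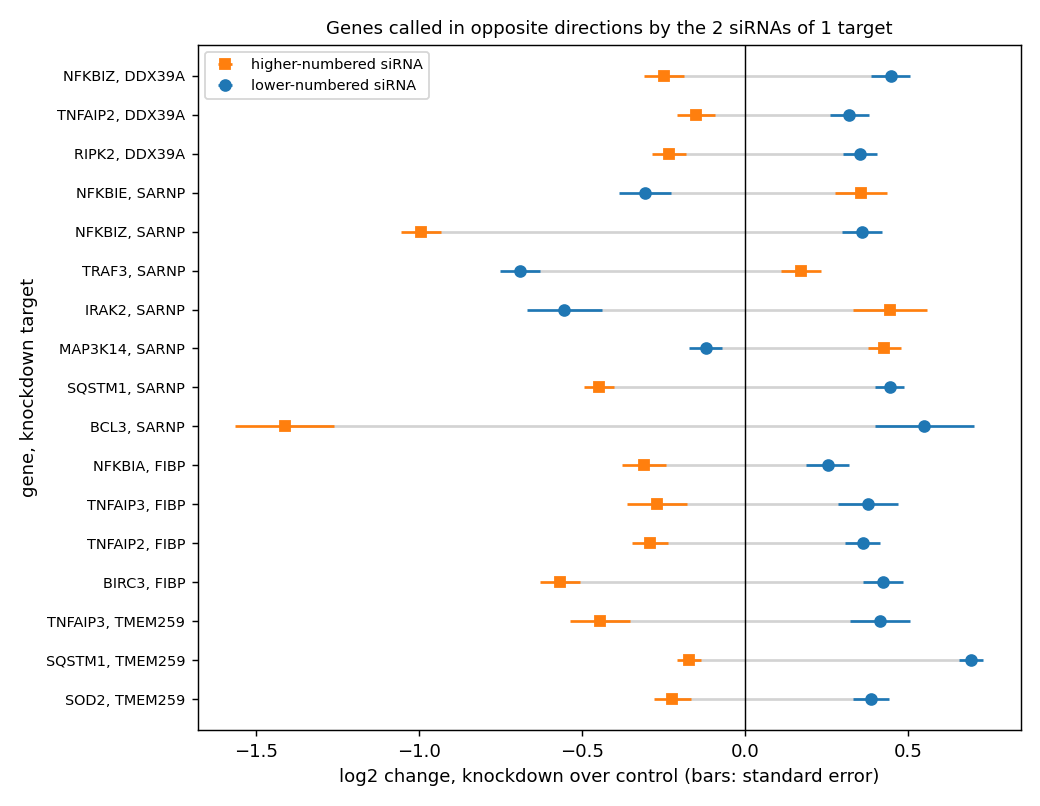
Squares (higher-numbered siRNA) and circles (lower-numbered siRNA) give the log2 change over control, with standard error bars, of the 17 gene and target pairs that the 2 siRNAs called in opposite directions. The widest gaps are those of BCL3 and NFKBIZ in SARNP knockdown.

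SARNP and DDX39A, both of the mRNA export machinery and measured in 1 table, were compared directly over the mean of their siRNAs. In SARNP knockdown 5 of the 36 were higher and 24 lower than in DDX39A knockdown (13.9% and 66.7%), beside 26.1% and 27.5% of all genes. The median difference of the 36 was -0.30, with the lowest at TNFAIP3 and the highest at MYD88 (0.21). Over these means 11 genes differed by over 0.5 (30.6%), all of them lower in SARNP knockdown, beside 5.71% of all genes lower and 4.42% higher by as much. They were the subunits RELB (-0.65) and NFKB2 (-0.61), the inhibitors TNFAIP3 (-1.09), NFKBIA (-0.62) and TNIP1 (-0.52), and the atypical IkB protein BCL3 (-0.55). The others were the kinases MAP3K8 (-0.70) and IKBKE (-0.69), and TRAF1 (-0.69), ICAM1 (-0.57) and CFLAR (-0.53). Among the 11 genes the standard error was largest for BCL3 (-0.55 ± 0.11). Their limma adjusted p-values ran from 1.19e-17 (TNFAIP3) to 3.97e-05 (BCL3). The means hide siRNAs that go the other way. BCL3 averaged 46.3 normalised counts with SARNP siRNA 9 and 184 with siRNA 3, against 103 with DDX39A siRNA 4 and 181 with siRNA 1, so that its difference rests on SARNP siRNA 9. CFLAR averaged 1323 with SARNP siRNA 3, against 1254 with DDX39A siRNA 4. Of the 24 genes called lower, 12 had every SARNP library below every DDX39A library (33.3% of the 36, beside 7.63% of all genes). They were NFKB1, NFKB2, RELB, NFKBIA, NFKBIB, TNFAIP3, TNIP1, MAP3K8, IKBKE, TRAF1, ICAM1 and SOD2. Of the 5 called higher, MYD88 had every SARNP library above every DDX39A library (2.78% of the 36, beside 7.08% of all genes). The means of all 5 IkB proteins and all 4 survival and effector genes were called lower in SARNP knockdown, but the libraries of NFKBIE, NFKBIZ, BCL3, CFLAR and TNFAIP2 overlapped, and NFKBIZ averaged 1046 with SARNP siRNA 3, against 686 with DDX39A siRNA 4. The error of this comparison comes from libraries within an siRNA and does not include how far siRNA to siRNA values vary within a target.

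Between TMEM259 and FIBP knockdown 6 of the 36 were higher and 10 lower in TMEM259 knockdown, beside 18.81% and 18.29% of all genes, and 0 differed by over 0.5, beside 2.97% of all genes higher and 1.13% lower by as much. The largest were REL (0.44 ± 0.09) and MAP3K8 (0.40 ± 0.07), higher in TMEM259 knockdown, and IKBKE (-0.36 ± 0.06), lower. With DESeq2, 10 genes were called in place of 16, and 50.0% of them were higher, against 37.5% with limma. Without replicate 1 of FIBP siRNA 7, 8 were higher and 6 lower.

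Other NF-kB target genes known from textbooks were counted for context, as lists chosen with earlier results of these data known. Of 30 listed, 23 were tested in the SART1 table, of which 22 rose and 0 fell with SART1 siRNA 6 (median 0.89) and 19 and 2 with siRNA 4 (median 0.50). Of 22 tested in each other table, 8 rose and 8 fell with SARNP siRNA 9, 4 and 13 with SARNP siRNA 3, 13 and 2 with DDX39A siRNA 4, 19 and 1 with DDX39A siRNA 1, 3 and 5 with TMEM259 siRNA 6, 7 and 1 with TMEM259 siRNA 5, 4 and 7 with FIBP siRNA 7, and 17 and 1 with FIBP siRNA 6. More of these genes rose than fell with both SART1 siRNAs, both DDX39A siRNAs, TMEM259 siRNA 5 and FIBP siRNA 6. More fell with SARNP siRNA 3, TMEM259 siRNA 6 and FIBP siRNA 7, and as many rose as fell with SARNP siRNA 9. The share of all genes called higher ran from 9.364% (TMEM259 siRNA 6) to 32.5% (SART1 siRNA 6). Raw counts are therefore not ranked across siRNAs. The counts of this list were not tested against the shares of all genes, which stand above. CXCL8, the neutrophil chemokine, had 1537 and 1612 normalised counts with SART1 siRNA 6 and 1252 and 1502 with siRNA 4, against 474 and 498 in controls, and 91.8 and 72.4 with SARNP siRNA 9 and 55.3 and 72.5 with siRNA 3, against 206 and 254. It rose by 1.69 with SART1 siRNA 6 and 1.49 with SART1 siRNA 4, and fell by 1.48 with SARNP siRNA 9 and 1.84 with SARNP siRNA 3. CCL2, the monocyte chemokine, had 181 and 157 with DDX39A siRNA 4 and 129 and 124 with DDX39A siRNA 1, against 56.2 and 61.9 (1.50 and 1.08, SE 0.17). CXCL5, another neutrophil chemokine, had 2793 and 2969 with TMEM259 siRNA 6 and 3294 and 2902 with siRNA 5, against 1873 and 1995 (0.58 and 0.68). IL6, an inflammatory cytokine, had 245 and 209 with FIBP siRNA 7 and 202 and 191 with FIBP siRNA 6, against 94.3 and 132 (1.01 and 0.81). IL6 was lower with SARNP siRNA 9 (-0.79) and siRNA 3 (-0.89). GADD45B of the same list was lower with TMEM259 siRNA 6 (-0.17) and siRNA 5 (-0.39). It was also lower with FIBP siRNA 7 (-0.42) and siRNA 6 (-0.19).

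Other receptors, kinases and nuclear regulators of the pathway were counted likewise, and these counts too were not tested against the shares of all genes given above. Of 26 other receptors and adaptors tested, 13 rose and 3 fell with SART1 siRNA 6, 9 and 7 with SART1 siRNA 4, 13 and 6 with SARNP siRNA 9, 6 and 8 with SARNP siRNA 3, 12 and 3 with DDX39A siRNA 4, 9 and 2 with DDX39A siRNA 1, 2 and 3 with TMEM259 siRNA 6, 4 and 1 with TMEM259 siRNA 5, 7 and 5 with FIBP siRNA 7, and 6 and 2 with FIBP siRNA 6. Of 27 other kinases and ubiquitin genes, 9 rose and 8 fell with SART1 siRNA 6, and 9 and 9 with SART1 siRNA 4. These counts were 4 and 11 with SARNP siRNA 9, 4 and 5 with SARNP siRNA 3, and 9 and 7 with DDX39A siRNA 4. They were 7 and 3 with DDX39A siRNA 1, 1 and 2 with TMEM259 siRNA 6, and 3 and 1 with TMEM259 siRNA 5. With FIBP siRNA 7 they were 1 and 6, and with FIBP siRNA 6, 1 and 3. Of 15 other IkB-like and nuclear regulators, 9 rose and 0 fell with SART1 siRNA 6 and 10 and 1 with SART1 siRNA 4, while with the other 8 siRNAs between 1 and 5 rose and between 0 and 6 fell. SHARPIN, part of the linear ubiquitin ligase, had 746 and 677 normalised counts with SART1 siRNA 6 and 728 and 736 with SART1 siRNA 4, against 1031 and 991 in controls, a fall of 0.51 with siRNA 6 and 0.47 with siRNA 4.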

How the data were processed

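Poly(A) RNA of 786-O cells was made into 26 directional paired-end libraries read at 42 bases, per the labels' protocols. The authors deposited 3 tables of normalised gene signal, which are read counts divided by a size factor per library. Per the submitters' processing notes the tools were STAR, Picard, HTSeq and DESeq2 with build hg19. Versions, annotation and strand setting are not given in the sources used here. Dividing by each library's step gave whole reads for 100% of values within 0.0001, used only in the edgeR and DESeq2 alternatives. Rows without a gene stayed out (5.79% to 9.02% of reads with no feature, 1.57% to 1.82% ambiguous).

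Genes with a table mean of at least 10 were fitted per table with limma 3.58.1 in R 4.3.3 (lmFit, contrasts.fit, eBayes with trend) on log2(value + 1), over all libraries of a table: 11823 genes for SART1, 11673 for SARNP and DDX39A and 11768 for TMEM259 and FIBP. This scale understates fold changes of low genes. The p-values were two-sided, adjusted by Benjamini-Hochberg over all tested genes and called below 0.05. Titles that spell targets SARPN and FIPB were read as SARNP and FIBP.

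Members and lists were chosen with earlier results of these data known. A gene was given per library where both siRNAs of a target called it with 1 sign and all their libraries lay beyond both controls, up to 8 per target by the smaller change. Genes called with opposite signs by the siRNAs of a target, or differing by over 0.5 between targets of a table, were named too, and the calls quoted for further members and the other pathway genes were picked from their values. Promoters came from RefSeq (GRCh38.p14) and were matched by symbol. The fits were also run on simulated counts with known changes and the same set spread for all genes, which need not be that of these data. The outcome is not given here. Alternatives were a pseudocount of 5, no filter or a mean of at least 50, quantile normalisation, edgeR 4.0.16 (quasi-likelihood, TMM), DESeq2 1.42.0, only the compared groups, leaving out each library, and a replicate block.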

Additional observations from a re-analysis of the deposited data

Results flagged for a closer look

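In 17 cases the 2 siRNAs of a target called a gene in opposite directions against the same controls. The difference between the siRNAs was called by limma as well (adjusted p at most 2.05e-07). That call follows from the 2 opposite calls and adds no support. Differences are given as the log2 value of the higher-numbered siRNA over the lower-numbered one. For SARNP siRNA 9 over siRNA 3 these were NFKBIE (0.66), NFKBIZ (-1.35), TRAF3 (0.86), IRAK2 (1.00), MAP3K14 (0.55), SQSTM1 (-0.89) and BCL3 (-1.96). For DDX39A siRNA 4 over siRNA 1 these were NFKBIZ (-0.70), TNFAIP2 (-0.47) and RIPK2 (-0.59). For TMEM259 siRNA 6 over siRNA 5 these were TNFAIP3 (-0.86), SQSTM1 (-0.86) and SOD2 (-0.61). For FIBP siRNA 7 over siRNA 6 these were NFKBIA (-0.56), TNFAIP3 (-0.65), TNFAIP2 (-0.65) and BIRC3 (-0.99). SART1 had no such gene. Of all tested genes, 13.0% met the same condition for SARNP, 5.16% for DDX39A, 2.17% for TMEM259, 2.50% for FIBP and 2.42% for SART1, beside 19.4%, 8.33%, 8.33%, 11.1% and 0% of the 36. The target mRNA was at 8.48% of its control mean with SARNP siRNA 9 and 13.5% with siRNA 3, at 16.5% with DDX39A siRNA 4 and 14.0% with siRNA 1, at 48.3% with TMEM259 siRNA 6 and 30.3% with siRNA 5, and at 17.1% with FIBP siRNA 7 and 11.0% with siRNA 6, and the part of these levels in the differences was not tested.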

How the results depend on the processing

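The number of the 36 genes called stayed within 1.5 times its value, in all 17 comparisons, with a pseudocount of 5, without the filter, at a table mean of at least 50, with quantile normalisation, with edgeR and with only the compared groups. With DESeq2 it was 10 in place of 18 for FIBP siRNA 7 and 10 in place of 16 for TMEM259 against FIBP knockdown; the cause was not tested. Leaving out 1 library at a time gave 26 to 28 genes for SART1 siRNA 6, 19 to 24 for SART1 siRNA 4, 22 to 24 for SARNP siRNA 9, 12 to 15 for SARNP siRNA 3, 14 to 16 for DDX39A siRNA 4, 20 to 21 for DDX39A siRNA 1, 5 to 10 for TMEM259 siRNA 6, 9 to 15 for TMEM259 siRNA 5, 11 to 16 for FIBP siRNA 7 and 10 to 17 for FIBP siRNA 6. Between siRNAs it gave 11 to 16 for SART1, 22 to 25 for SARNP, 15 to 19 for DDX39A, 12 to 17 for TMEM259 and 15 to 19 for FIBP, and between targets 27 to 29 for SARNP against DDX39A and 12 to 16 for TMEM259 against FIBP. With 1 library left in a group, that library is assumed to vary like the others.

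Of 435 log2 changes checked, 123 lost their call under at least 1 alternative and 1 changed sign, the BIRC2 change with SART1 siRNA 6, which was -0.00095 with quantile normalisation. By alternative, 77 of 434 calls were lost with DESeq2, 20 with quantile normalisation, 5 with edgeR, 6 with only the compared groups and 270 of 1920 when a library was left out. Library replicate numbers are not said to pair samples, and the correlations of same-numbered libraries' deviations lay between -0.06 and 0.05. A fit with the replicate block called 28 genes for SART1 siRNA 6 in place of 27 and 10 for TMEM259 siRNA 6 in place of 12, kept every count within 1.5 times, and lost 16 calls. Counting limits matter most for BCL3, with 47 reads in its lowest library.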

Other observations

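The calls of the 10 genes whose promoter window holds the kB letters and of the 22 matched genes whose window does not were counted side by side, with no test, since the letters were chosen after the promoters had been read and after earlier results of these data. With SART1 siRNA 6, 6 of the 10 with a match rose and 0 fell, and 12 of the 22 without one rose and 6 fell (median log2 change 0.25 and 0.15). 5 of the genes with a match rose and 1 fell, and 9 of those without one rose and 7 fell (median log2 change 0.16 and 0.05) with SART1 siRNA 4. With SARNP siRNA 9, 1 of the genes with a match rose and 7 fell, and 4 of those without one rose and 9 fell (median log2 change -0.38 and -0.11). 1 of the genes with a match rose and 1 fell, and 4 of those without one rose and 8 fell (median log2 change -0.09 and -0.09) with SARNP siRNA 3. With DDX39A siRNA 4, 5 of the genes with a match rose and 2 fell, and 7 of those without one rose and 3 fell (median log2 change 0.24 and 0.07). 7 of the genes with a match rose and 0 fell, and 8 of those without one rose and 4 fell (median log2 change 0.39 and 0.11) with DDX39A siRNA 1. With TMEM259 siRNA 6, 2 of the genes with a match rose and 1 fell, and 1 of those without one rose and 7 fell (median log2 change -0.05 and -0.03). 5 of the genes with a match rose and 0 fell, and 6 of those without one rose and 5 fell (median log2 change 0.25 and 0.04) with TMEM259 siRNA 5. With FIBP siRNA 7, 2 of the genes with a match rose and 4 fell, and 3 of those without one rose and 6 fell (median log2 change -0.08 and -0.08). 6 of the genes with a match rose and 1 fell, and 7 of those without one rose and 3 fell (median log2 change 0.20 and 0.07) with FIBP siRNA 6. A match is only these letters in the window, and binding was not measured.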
